A study of Mus musculus with 10 samples.

Results

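The nuclear-encoded subunits of the mitochondrial respiratory chain, with the factors that assemble 2 of its complexes, were examined in murine Mll-AF9 leukaemia cells after knockdown of Meis1. Members were all genes whose single platform symbol starts with Nduf, Uqcr, Sdh (Sdha to Sdhd and Sdhaf) or Cox4 to Cox8. This gave 77 of the 18193 genes measured. There were 36 genes under complex I, 4 under complex II, 8 under complex III, 17 under complex IV and 12 assembly factors (8 Ndufaf and 4 Sdhaf genes). Of a gene's probe sets, the brightest on average over the 10 arrays was used.

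The cells (line 4166) carry the Mll-AF9 fusion, which transforms myeloid progenitors, and were grown with 15% serum and 2 ng/ml interleukin 3. The Meis1_shRNA group (n = 5 arrays) received a lentivirus with a short hairpin RNA against Meis1, and the control_vector group (n = 5 arrays) received the empty lentiviral vector. Both groups were selected with puromycin and profiled at 48 h on Affymetrix arrays, and the labels pair the samples by number. The control virus carried no hairpin, so effects of a hairpin as such and of Meis1 loss cannot be told apart. Nothing in the labels tells whether replicates were separate cultures, and the spread behind each p-value may therefore be technical.

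The respiratory chain passes electrons from NADH and succinate to oxygen and pumps protons across the inner mitochondrial membrane. Complex I oxidises NADH, complex II oxidises succinate, complex III moves electrons from ubiquinol to cytochrome c, and complex IV reduces oxygen. Most subunits are encoded in the nucleus, made in the cytosol and imported, and acute myeloid leukaemia cells are known to rely on oxidative phosphorylation. In mammals, promoters of these genes are known to be bound by NRF1 and by GABP, an ETS family factor whose DNA-binding subunit is Gabpa.

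Stretches of 4 member promoters, 1 from each of complexes I to IV, are shown because the letters of the ETS motif CCGGAAG recur across the set, and a further pair shows the NRF1 motif, a palindrome of 10 bases. Capitals mark the motif or its reverse complement, and each line reads 5′ to 3′ on the gene's strand.
Ndufs3, ETS motif: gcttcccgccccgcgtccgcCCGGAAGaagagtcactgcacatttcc
Sdhd, ETS motif: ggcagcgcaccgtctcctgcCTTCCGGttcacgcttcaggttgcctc
Uqcr11, ETS motif: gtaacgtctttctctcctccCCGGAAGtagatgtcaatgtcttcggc
Cox6a1, ETS motif: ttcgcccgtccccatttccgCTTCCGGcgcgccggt
Cox6a1, NRF1 motif: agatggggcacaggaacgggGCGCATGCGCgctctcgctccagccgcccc
Ndufaf4, NRF1 motif: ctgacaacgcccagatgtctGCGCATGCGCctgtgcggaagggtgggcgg
The sequences are from RefSeq on GRCm38.p6. The Ndufs3 stretch lies at chr2:90904722-90904768 (minus strand), Sdhd at chr9:50603869-50603915 (minus) and Uqcr11 at chr10:80406861-80406907 (minus). The Cox6a1 stretches lie at chr5:115348959-115348994 and chr5:115349091-115349140 (minus), and Ndufaf4 at chr4:24897950-24897999 (plus). Each lies upstream of the gene's start, with the motif beginning 27 bases before it in Ndufs3, 46 in Sdhd, 66 in Uqcr11, 16 and 162 in Cox6a1 and 113 in Ndufaf4.

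Promoters of 300 bases (250 before the start to 50 after) were matched for 63 of the 77 members. The ETS motif was found on either strand in 16 of the 63 members (25.4%), and in 9.93% of all 27025 genes with a promoter in the table. The palindromic NRF1 motif was found in 4 members (6.35%; 1.07% of all genes), and the YY1 motif AAGATGGCG in 5 (7.94%; 1.64% of all genes). No 2 of these motifs overlapped in a member promoter. Members with the ETS motif had log2 changes between -0.18 and 0.13 (median 0.00), and the others with a promoter had changes between -0.35 and 0.26 (median 0.01). Those with the NRF1 motif, namely Cox6a1, Ndufaf4, Ndufaf5 and Uqcrc1, had changes between -0.35 and -0.08 (median -0.13), and the others with a promoter between -0.29 and 0.26 (median 0.01); none of these members passed the threshold. Those with the YY1 motif had changes between -0.19 and 0.18. A match describes letters only and does not show binding.

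Meis1, the target, read 192.6, 220.7, 126.7, 142.4 and 140.2 in shRNA arrays 1 to 5, against 395.9, 413.1, 297.1, 332.7 and 290.3 in the paired control arrays. Every shRNA array was below every control array, a log2 change of -1.09 (SE 0.08) with an adjusted p of 0.000636 (limma, pair as a block). That held for the brightest probe set. Other Meis1 probe sets, read near background at mean log2 levels of 2.91 and 2.47, changed by 0.09 and 0.11. Myeloid markers fitted the label, with 12 of 12 measured at mean log2 levels of 5.13 to 13.33. Among them Kit, Elane and Ptprc fell (log2 changes -0.78, -0.40 and -0.35). Of all genes above a mean log2 level of 5, 6.61% were called lower and 2.14% higher. The other 9 markers did not pass. Of these, Itgam, Spi1, Cebpa and Csf2rb had log2 changes of 0.45, 0.33, 0.26 and 0.22 (limma, unadjusted p 0.011 to 0.0365). The summed level of the 12 was 23200 to 37200 in the shRNA arrays and 25500 to 42500 in the controls. The part of these differences in the results was not tested. Erythroid, lymphoid and stromal markers lay between 1.74 and 3.04, near the unspiked bacterial Trpn controls (1.83 to 2.03). Of these 22, 0 passed the threshold, with 1 at an unadjusted p under 0.05 (over all genes 4.06% and 18%). The ratio of 3 prime to 5 prime signal, a sign of RNA quality, was 0.37 ± 0.02 in the shRNA arrays and 0.28 ± 0.06 in the control arrays on the log2 scale (SD, n = 5 each). It was higher in 5 of 5 pairs (exact two-sided sign-flip permutation p = 0.0625, the smallest possible).

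Respiratory chain transcripts were close to their control level when Meis1 was reduced. None of the 77 members passed an adjusted p of 0.05 by limma, whereas 4.06% of all genes did (2.98% lower, 1.08% higher). Of the 67 members with a mean log2 level above 5, none passed, against 8.75% of all genes above that level (6.61% lower, 2.14% higher). Members were brighter than these genes. At a level of 9 or more, 0 of 55 members and 5.69% of 2058 genes passed (80 genes lower, 37 higher). At an unadjusted p under 0.05 there were 8 members (5 lower, 3 higher), against 18% of all genes (11.1% lower, 6.9% higher). The median log2 change of the members was 0.01 (range -0.35 to 0.26), and over all genes it was 0.00 (range -2.27 to 2.32). The sign of the members' median turned with the scaling, at 0.03 after quantile normalization and -0.03 after median centring. The median over all genes moved likewise, to 0.01 and -0.04. Changes below 0 were seen in 30 of the 67 brighter members and in 58.5% of the genes above a mean log2 level of 5. Among genes at a level of 9 or more they were seen in 1072 of 2058. The change was smaller than 0.25 in either direction for 73 of the 77 members, or 94.8%, and for 82.4% of all genes. Intensities of different probe sets depend on the probes and are not compared as transcript levels, and RNA per cell was not measured, so fewer cells of a type and less RNA per cell cannot be told apart.

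The intervals of the members were narrow. The 95% interval of the log2 change lay inside a 1.5-fold change in either direction (0.58 on the log2 scale) for 66 of the 67 members with a mean log2 level above 5 and for 81.2% of all genes above that level. Counting the 10 members at a level of 5 or below, most of them near background, where a small change says little about the transcript, it was 76 of 77. The exception was the assembly factor Ndufaf5, whose lower bound was -0.59. Over genes at any level the share was 87.1%. Among genes with a mean log2 level of 9 or more, a level chosen after the data were seen, the intervals of 55 of 55 members and of 93.2% of 2058 genes lay inside. These intervals are not adjusted for the number of genes, and RMA, which made the values, is known to compress fold changes.

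**Figure D1:**
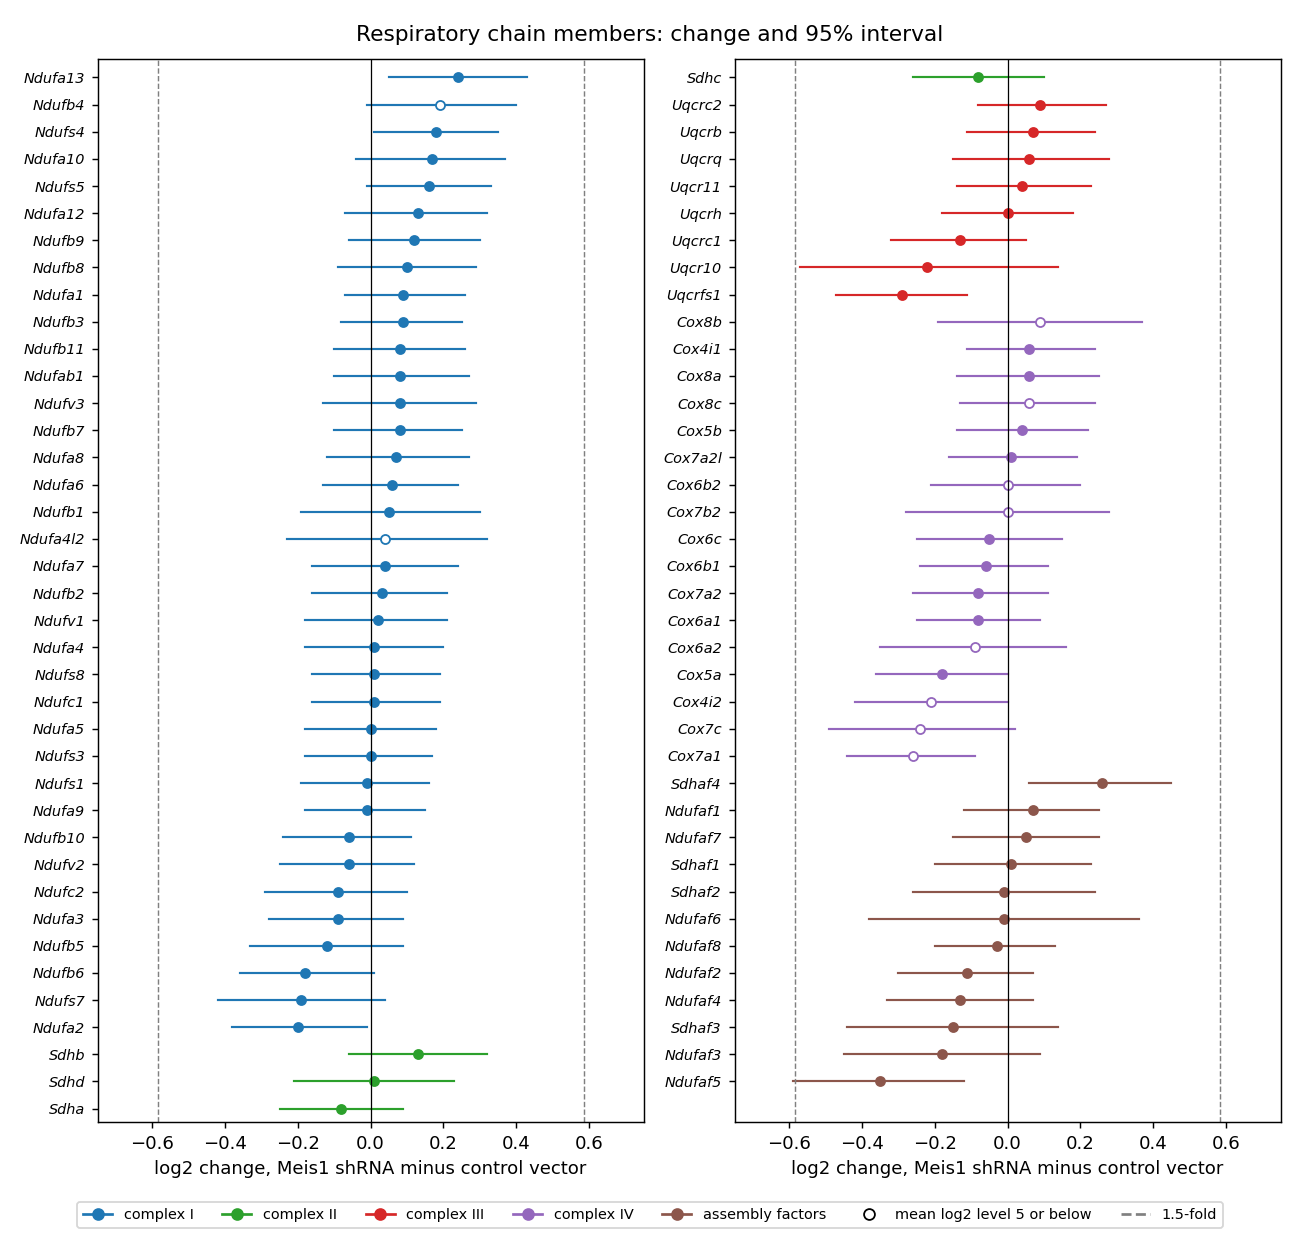
Log2 change (Meis1 shRNA minus control vector) of each of the 77 members with its 95% interval from the paired limma fit, by complex; open symbols mark a mean log2 level of 5 or below and dashed lines a 1.5-fold change. The intervals cluster around 0, and that of Ndufaf5 alone crosses a dashed line.

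**Figure D2:**
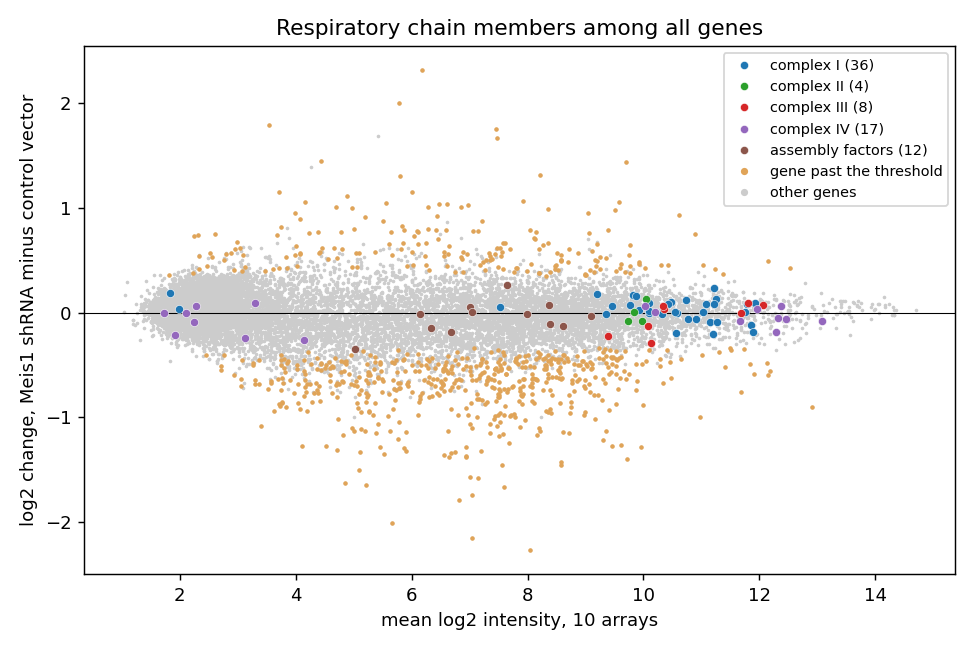
Log2 change (Meis1 shRNA minus control vector) against mean log2 intensity over 10 arrays for 18193 genes in grey, the genes past the threshold in orange and the members in colour. Members lie between -0.35 and 0.26, inside the cloud of genes that did not pass.

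In complex I, the L-shaped NADH dehydrogenase, 11 of 36 members had a change below 0, against 49% of all genes. The median was 0.04 (0.00 after median centring) and the range -0.20 to 0.24. The core subunits carry the flavin and the iron-sulfur clusters. The 6 measured here (Ndufs1, Ndufs3, Ndufs7, Ndufs8, Ndufv1 and Ndufv2) had a median change of -0.01 and lay between -0.19 and 0.02. Ndufs1, the largest of the core subunits, read 650.3, 682.8, 683.7, 641.6 and 608.4 in the shRNA arrays, against 646.0, 637.4, 698.3, 667.4 and 645.2 in the controls. The groups overlapped almost fully, and the 95% interval of the log2 change was -0.19 to 0.16. Ndufs7, which carries the last iron-sulfur cluster before ubiquinone, changed by -0.19 (95% interval -0.42 to 0.04, adjusted p = 0.37) and was lower in 4 of 5 pairs. Its dimmer probe set (mean log2 level 9.25) changed by -0.29 (95% interval -0.49 to -0.08) and was lower in all 5 pairs. The adjusted p of that probe set was 0.17 in a limma fit over all probe sets.

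The other 30 members under complex I were mostly accessory subunits, which surround and stabilise the core. Ndufa4 and Ndufa4l2 were kept among them by their prefix. The 30 had a median change of 0.06, and 8 of them, 1 of these near background, were higher in all 5 pairs. Over all genes, 7.45% were higher in all 5 pairs. Above a mean log2 level of 5, 7 of 28 of these members and 806 of 6721 genes were. Among genes at a level of 9 or more, 343 of 2058 were. Ndufa13, an accessory subunit also known as Grim19, differed most. It read 2147, 2399, 2914, 2745 and 2714 in the shRNA arrays, against 1764, 1797, 2427, 2477 and 2544 in the controls. The groups overlapped because samples 1 and 2 of both groups were the lowest, while each shRNA array was above its own control. The log2 change was 0.24 (SE 0.08, adjusted p = 0.166).

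Ndufa2, an accessory subunit of the NADH-oxidising arm, moved the other way. It read 2472, 2365, 1967, 2080 and 2141 in the shRNA arrays, against 2578, 2572, 2412, 2603 and 2432 in the controls. The shRNA arrays were lower in all 5 pairs, and shRNA 1 lay within the control range (log2 change -0.20, SE 0.08, adjusted p = 0.242). Ndufs4, whose loss causes a Leigh-like disease in mice, had 642.6, 698.7, 619.1, 554.6 and 593.4 in the shRNA arrays, against 569.4, 580.6, 556.5, 501.8 and 538.5 in the controls. It was higher in every pair, the groups overlapped, and the change was 0.18 (adjusted p = 0.261). Ndufb3, of the membrane arm, had 1151, 1093, 1118, 1145 and 1125 in the shRNA arrays, against 1085, 1024, 1086, 1048 and 1064 in the controls. Its groups did not overlap, yet the change was 0.09 (adjusted p = 0.623).

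None of the other complex I members passed either. Among them Ndufb6, Ndufa10 and Ndufs5, accessory subunits too, had log2 changes of -0.18, 0.17 and 0.16 (adjusted p = 0.312, 0.384 and 0.324). Ndufa1, a membrane arm subunit, averaged 4030 ± 173 in the shRNA arrays and 3770 ± 139 in the controls (SD, n = 5 each), with adjusted p = 0.581. Ndufa5 averaged 1530 ± 138 in the shRNA arrays and 1530 ± 69.1 in the controls, and its 95% interval was -0.18 to 0.18. Ndufa4, which keeps its old name but is now counted with complex IV, changed by 0.01 (95% interval -0.18 to 0.20). Ndufb1, another membrane arm subunit, had 253.9, 301.7, 143.6, 153.1 and 140.1 in the shRNA arrays, against 214.7, 228.4, 155.8, 170.4 and 151.6 in the controls. Samples 1 and 2 were the highest in both groups, and the change was 0.05 (adjusted p = 0.864). The only probe set of Ndufb4 with 1 symbol was near background (mean log2 level 1.83), with a change of 0.19 (adjusted p = 0.315). The brighter probe sets it shares with Ndufb4b and Ndufb4c were left out by the rule and changed by 0.02 and 0.01.

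Complex II, succinate dehydrogenase, links the tricarboxylic acid cycle to the chain, and its 4 subunits changed between -0.08 and 0.13. Sdha, the flavoprotein, read 993.2, 959.9, 993.1, 1000 and 977.1 in the shRNA arrays, against 1049, 1059, 1001, 1071 and 1024 in the controls. The groups did not overlap, but by a narrow margin, and the change of -0.08 did not pass (95% interval -0.25 to 0.09, adjusted p = 0.656). Over all genes the groups did not overlap in 4.98% (shRNA lower in 3.45%, higher in 1.53%). Among members this held for Sdha and Uqcrfs1, which were lower, and Ndufb3, which was higher. Sdhb, the iron-sulfur subunit, had 1157, 1186, 1026, 1092 and 1039 in the shRNA arrays, against 991.3, 966.9, 1014, 1084 and 970.9 in the controls. It was higher in all 5 pairs with overlapping groups, and changed by 0.13 (adjusted p = 0.485). The membrane anchors Sdhc and Sdhd changed by -0.08 (adjusted p = 0.681) and 0.01 (adjusted p = 0.977).

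In complex III, the cytochrome bc1 complex, 4 of 8 members had a change below 0, with a median of 0.02. Uqcrfs1, the Rieske iron-sulfur protein that takes electrons from ubiquinol, had the largest difference of any subunit. It read 1084, 1009, 986.9, 991.8 and 1017 in the shRNA arrays, against 1233, 1225, 1249, 1324 and 1176 in the controls. Every shRNA array was below every control array. The log2 change was -0.29 (SE 0.08, 95% interval -0.47 to -0.11), with an adjusted p of 0.0901. This member is the one most dependent on the test: it passed with a trend in the variance and robust eBayes (adjusted p = 0.00349), after adding 16 to the intensities (0.0177) and among brighter genes alone (0.0207).

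Uqcr10, a small subunit, was uneven. It had 704.2, 790.3, 612.8, 515.7 and 524.5 in the shRNA arrays, against 690.2, 739.0, 621.7, 1033 and 593.9 in the controls. Control 4 stood above the other arrays, and the change of -0.22 (adjusted p = 0.55) was -0.02 without pair 4. That held for the brightest probe set. A dimmer one (mean log2 level 5.08) changed by -0.61, with pair differences of 0.20, -0.76, -0.74, -0.81 and -0.96. Its adjusted p was 0.0974 in a limma fit over all probe sets. The core proteins Uqcrc1 and Uqcrc2 changed in opposite directions, by -0.13 and 0.09, each with the same sign in all 5 pairs (adjusted p = 0.46 and 0.613). Uqcrb, which binds ubiquinone, averaged 4370 ± 206 in the shRNA arrays and 4170 ± 98.9 in the controls (SD, n = 5 each; adjusted p = 0.732), and the hinge protein Uqcrh had a change of 0.00 (95% interval -0.18 to 0.18).

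**Figure D3:**
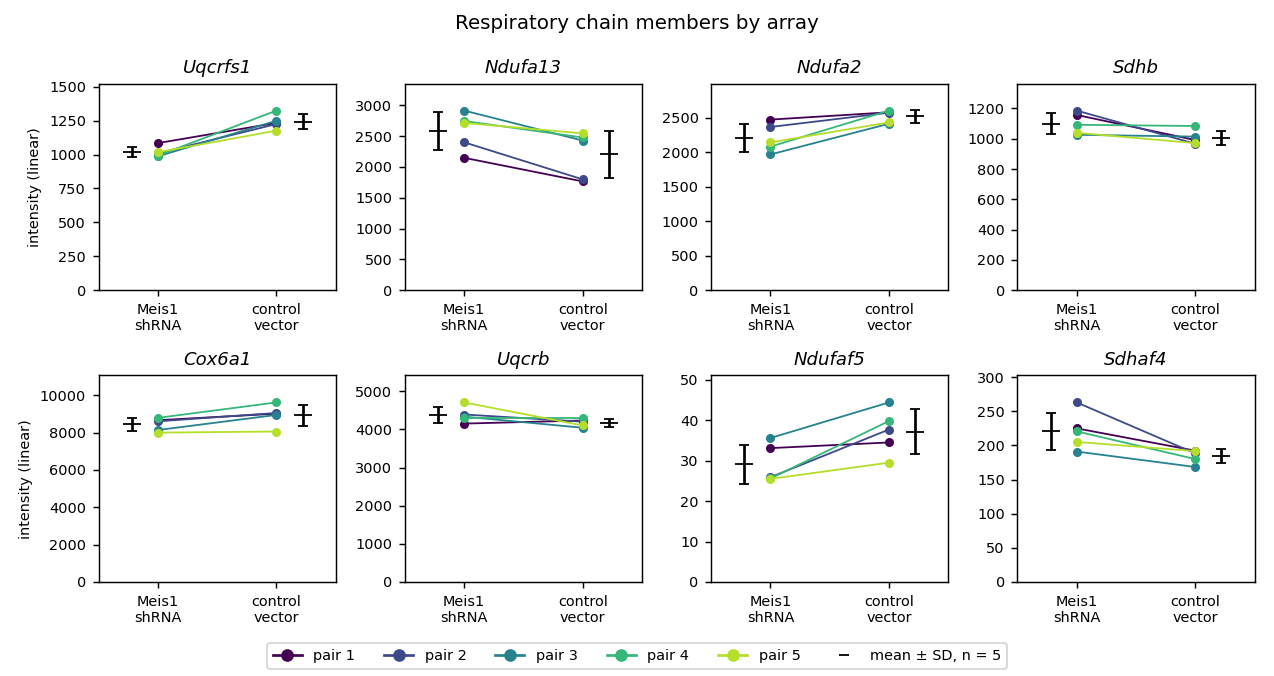
Intensity on a linear scale for 8 members in the Meis1 shRNA arrays (left) and control vector arrays (right), with lines joining the 5 pairs and bars for the mean ± SD. Uqcrfs1 is lower in every shRNA array than in any control, and the groups overlap for the other 7 genes.

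Complex IV, cytochrome c oxidase, was read through 9 members above a mean log2 level of 5, whose changes lay between -0.18 and 0.06 with a median of -0.05. Cox5a, a matrix-side subunit, read 5233, 4580, 4767, 4707 and 4388 in the shRNA arrays, against 5701, 5518, 5032, 5780 and 4743 in the controls. It was lower in all 5 pairs with overlapping groups (log2 change -0.18, adjusted p = 0.292). Cox6a1, the form of subunit VIa outside heart and muscle, averaged 8440 ± 348 in the shRNA arrays and 8940 ± 560 in the controls (SD, n = 5 each). It was lower in all 5 pairs with overlapping groups (change -0.08, 95% interval -0.25 to 0.09, adjusted p = 0.648). Cox4i1 and Cox5b changed by 0.06 and 0.04, and Cox7a2l, which joins complexes III and IV into supercomplexes, by 0.01 (adjusted p = 0.749, 0.853 and 0.965). Cox7c had probe sets with 1 symbol near background alone (8.03 ± 1.02 in the shRNA arrays and 9.44 ± 0.87 in the controls), where its change was -0.24 (adjusted p = 0.32).

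The tissue-restricted forms were dim, at mean log2 levels of 1.72 to 4.14, and most lay near background. They are the lung and hypoxia form Cox4i2, the heart and muscle forms Cox6a2, Cox7a1 and Cox8b, the testis forms Cox6b2, Cox7b2 and Cox8c, and Ndufa4l2, which is known to be induced by hypoxia. None of the 8 passed, with 2 at an unadjusted p under 0.05 (over all genes 4.06% and 18%). Cox7a1 was the brightest of the 8 (mean log2 level 4.14). It had 20.5, 17.9, 14.3, 18.7 and 11.1 in the shRNA arrays, against 24.7, 23.7, 16.4, 21.4 and 13.0 in the controls. It was lower in all 5 pairs while the groups overlapped (log2 change -0.26, adjusted p = 0.114). Cox4i2 changed by -0.21 (adjusted p = 0.266), and the other 6 lay between -0.09 and 0.09 with adjusted p of 0.745 or more.

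Of the 12 assembly factors in the set, 8 had a change below 0, with a median of -0.02. Ndufaf5, which modifies the core subunit Ndufs7 during assembly, read 33.1, 25.9, 35.6, 25.6 and 25.5 in the shRNA arrays, against 34.5, 37.7, 44.4, 39.8 and 29.5 in the controls. It was lower in all 5 pairs with overlapping groups (log2 change -0.35, SE 0.10, adjusted p = 0.109). Sdhaf4, which helps to join the flavinated Sdha to Sdhb, read 225.1, 263.1, 191.1, 220.7 and 205.2 in the shRNA arrays, against 192.4, 188.4, 168.5, 180.1 and 191.7 in the controls. It was higher in all 5 pairs, with shRNA 3 inside the control range (change 0.26, SE 0.09, adjusted p = 0.155). Ndufaf8 averaged 542 ± 49.6 in the shRNA arrays and 555 ± 43.0 in the controls (SD, n = 5 each), and Sdhaf2, needed to attach the flavin to Sdha, changed by -0.01 (adjusted p = 0.868 and 0.984). Over all genes, 10.3% were lower in all 5 pairs, and among the 77 members 9 were. Above a mean log2 level of 5, 8 of 67 members and 1395 of 6721 genes were.

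Other settings of the test called a few members, each beside a higher share of all genes. With only genes above a mean log2 level of 5, Ndufaf5 and Uqcrfs1 were lower and Sdhaf4 and Ndufa13 higher, with 19.4% of genes called (13.6% lower, 5.8% higher). With 16 added to the intensity, Uqcrfs1 was lower and Ndufs4 and Ndufs5 higher, with 5.99% of genes called (4.06% lower, 1.92% higher). With trend and robust eBayes, Ndufa2, Ndufb6, Uqcrfs1 and Cox5a were lower and Ndufa13 higher, with 8.23% of genes called (5.74% lower, 2.49% higher). Uqcrfs1 was called in each of these settings.

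Members varied less between control arrays than all genes above a log2 level of 5, but were also brighter (median log2 level 10.33 against 8). Among the 67 members above that level, the median range over the 5 controls was 0.19 on the log2 scale (0.07 to 0.89). Over all genes above that level it was 0.38. The median SE of the change was 0.081 in these members and 0.0928 in all genes above that level. In genes at a level of 9 or more it was 0.0816, so low spread is not particular to members. By pair, the median difference of these members was 0.05, 0.08, -0.02, -0.06 and -0.01 in pairs 1 to 5. For all genes above that level it was -0.02, -0.07, -0.01, -0.10 and -0.02. Complex I members were below 0 in 7, 12, 16, 22 and 17 of 34 cases in the same pairs. Pair 4 had the lowest member median, and the largest single drops, in Uqcr10 (-1.0) and Ndufaf6 (-0.84), were in that pair. The difference in the 3 prime to 5 prime ratio was 0.11, 0.06, 0.09, 0.19 and 0.01 in pairs 1 to 5, largest in pair 4, and its part in these differences was not tested further. Adding this ratio to the model, the median of the members was 0.06 and 0 of 77 passed, while 2 genes passed in all.

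**Figure D4:**
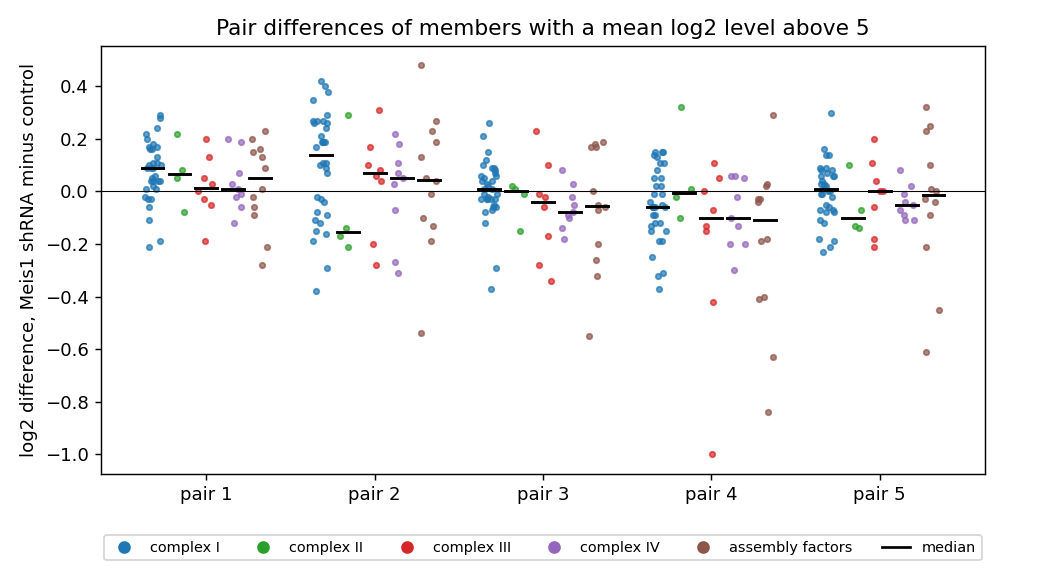
Log2 difference (Meis1 shRNA minus paired control) of each of the 67 members above a mean log2 level of 5, by pair and complex, with black bars for medians. Complex I medians are 0.09 and 0.14 in pairs 1 and 2 and -0.06 in pair 4.

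Probe sets of a gene mostly differed little in change. The members had 154 probe sets with 1 symbol, and 33 genes had at least 2 above a log2 level of 5. The spread of log2 change between such probe sets of a gene had a median of 0.10, and in 14 of the 33 genes the signs differed. The widest spread, 0.42, was in Uqcr10, whose 3 probe sets changed by -0.22, -0.19 and -0.61. In a fit over all 45037 probe sets, 2.48% passed (1.96% lower, 0.522% higher), and 0 of the 154 member probe sets did.

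The rest of the pathway was read through lists drawn up with earlier results of these data known. Among 20 measured genes of the ATP synthase (complex V) and its factors, 0 passed, with 2 at an unadjusted p under 0.05, and the median change was -0.01. The smallest p was that of Dmac2l (-0.23, adjusted p = 0.164). Among 20 electron carriers and other entry points, 0 passed, with 5 at an unadjusted p under 0.05 (3 lower, 2 higher). Over all genes, 4.06% passed in the limma fit (8.75% above a mean log2 level of 5), and 18% had an unadjusted p under 0.05. Lists of 20 genes are too short to tell 0 passing from these shares. Cytochrome c (Cycs) and cytochrome c1 (Cyc1) each changed by 0.01, and Coq3, an enzyme of ubiquinone synthesis read near background, by -0.36 (adjusted p = 0.126). Coq8a and Coq9, which also serve ubiquinone synthesis, had changes of 0.38 and 0.23 (adjusted p = 0.132 and 0.177), and Coq8a was read at a mean log2 level of 4.06.

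Several genes of the lists around the chain were called lower. All 7 named here had a mean log2 level above 5, and 6.61% of all genes above that level were called lower (2.98% of genes at any level). These lists too are short, and the counts called lower in each cannot be told from these shares. Of 36 measured assembly factors outside the subunit set, 3 fell, 0 rose and 33 did not pass, with a median of -0.08. Cox19, a small protein needed for cytochrome c oxidase in yeast, read 51.0, 47.4, 38.4, 26.9 and 29.2 in the shRNA arrays, against 104.6, 111.1, 72.3, 119.0 and 63.0 in the controls. No shRNA array reached the lowest control, a log2 change of -1.29 (SE 0.17, adjusted p = 0.00547). Cox11, which delivers copper to complex IV, averaged 127 ± 19.6 in the shRNA arrays and 199 ± 26.9 in the controls (SD, n = 5 each), a change of -0.65 (adjusted p = 0.00924). Uqcc1, a complex III assembly factor, averaged 80.3 ± 8.82 in the shRNA arrays and 118 ± 15.3 in the controls (SD, n = 5 each), a change of -0.55 (adjusted p = 0.0116). Their groups did not overlap either. With the mean of all probe sets of a gene, dim ones included, the changes of Cox11, Uqcc1, Mdh1 and Dld were -0.35, -0.36, -0.54 and -0.32, all past the threshold (adjusted p 0.00651 to 0.0492).

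Of 18 genes of the tricarboxylic acid cycle list, 2 fell and 0 rose, with a median of 0.00. Mdh1 is the cytosolic malate dehydrogenase, which serves the malate-aspartate shuttle and not the cycle itself. It read 1548, 1091, 1562, 1337 and 1662 in the shRNA arrays, against 2836, 2688, 2791, 2941 and 2989 in the controls, with no overlap (log2 change -1.0, SE 0.10, adjusted p = 0.00152). Its mitochondrial relative Mdh2 changed by 0.07 (adjusted p = 0.728). Dld, the dehydrogenase subunit shared by the pyruvate and 2-oxoglutarate complexes, averaged 419 ± 47.5 in the shRNA arrays and 707 ± 48.9 in the controls (SD, n = 5 each), a change of -0.76 (adjusted p = 0.0024).

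Of 19 genes of mitochondrial transcription and biogenesis, 2 fell and 0 rose, with a median of -0.09. Gabpa, the DNA-binding subunit of GABP, read 344.9, 346.9, 387.7, 332.1 and 443.6 in the shRNA arrays, against 555.1, 551.8, 548.8, 587.9 and 548.4 in the controls. No array overlapped with the other group (log2 change -0.60, SE 0.10, adjusted p = 0.0133), and a dimmer probe set changed by -1.14. Tfb1m, which methylates mitochondrial ribosomal RNA, averaged 87.3 ± 9.57 in the shRNA arrays and 124 ± 13.1 in the controls (SD, n = 5 each), a change of -0.51 (adjusted p = 0.0349). Nrf1 and Tfam, 2 main regulators of these genes, changed by -0.32 and -0.05 without passing (adjusted p = 0.145 and 0.815). The Nrf1 groups did not overlap.

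**Figure D5:**
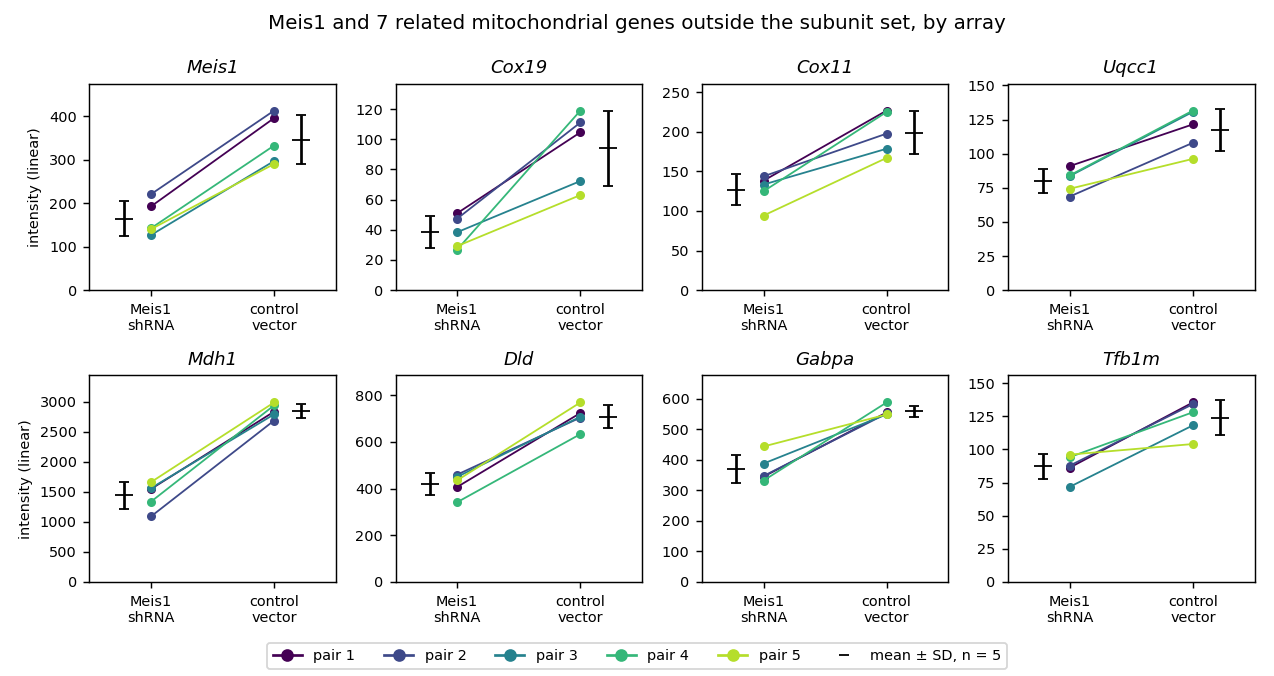
Intensity on a linear scale of Meis1 and 7 mitochondrial or metabolic genes outside the subunit set in the Meis1 shRNA arrays (left) and control vector arrays (right), with lines joining the 5 pairs and bars for the mean ± SD. In each of the 8 genes every shRNA array is below every control array.

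When the model also held the 3 prime to 5 prime ratio, changes of Cox19, Cox11, Uqcc1, Mdh1, Dld, Gabpa and Tfb1m were -0.77, -0.58, -0.46, -0.92, -0.69, -0.36 and -0.39, and none of the 7 passed (adjusted p 0.339 to 0.833). In that fit only 2 of all 18193 genes passed (0.011%), so the loss of these calls is not particular to the 7. Without pair 4, Cox11, Uqcc1, Gabpa and Tfb1m had adjusted p of 0.05, 0.062, 0.0641 and 0.116, and leaving out other pairs gave 0.0509 and 0.0517 for Uqcc1 (pairs 2 and 3), 0.0602 and 0.0581 for Gabpa (pairs 1 and 2) and 0.113 to 0.124 for Tfb1m (pairs 1 to 3). Whether these genes differ in change from the subunits was not tested.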

How the data were processed

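Total RNA from 10 samples of Mll-AF9 cells was labelled with biotin and hybridised to Affymetrix arrays, per the labels. The deposited values are intensities, between 1.30 and 32400, made by the authors with RMA per the submitters' processing notes (its version and settings are not stated there); a linear scale is inferred from their range. All 10 value columns belonged to this series (0 others). They were log2-transformed without a pseudocount. Of 45101 probe sets, 64 controls were left out. Of the other 45037, 34945 had 1 gene symbol, 932 several and 9160 none. Each of 18193 genes was read from its brightest probe set, and 77 of 77 members matched RefSeq.

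Groups were compared with limma 3.58.1 (R 4.3.3, lmFit and eBayes) with sample number as a block, two-sided, Benjamini-Hochberg adjusted over all genes at 0.05, after a check on simulated data. The labels' treatment protocol gives the pairing. Over 11215 probe sets above a log2 level of 5, deviations of same-numbered samples correlated at 0.60, 0.462, 0.339, 0.31 and 0.557. Log2 changes are shRNA minus control. Members and lists were chosen with earlier results of these data known. Genes named were Meis1, members past the threshold, in each class the brightest, the 2 largest changes and the smallest, tissue-restricted forms, and up to 3 called genes (or the lowest p) per list. Other members named, such as Sdha, Ndufb3 and Ndufs4, and genes of the lists outside this rule (Mdh2, Nrf1, Tfam, Cycs, Cyc1, Coq8a, Coq9 and the myeloid markers) were chosen after their values were seen. Roles within complexes were assigned then too.

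The number of arrays limits precision. Alternatives were no block, quantile normalization, median centring, the mean of all probe sets, a level filter, a pseudocount of 16, trend and robust eBayes, the 3 prime to 5 prime ratio as covariate, and leaving out each pair.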

Additional observations from a re-analysis of the deposited data

Results flagged for a closer look

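Of 70 groups of 5 arrays (35 named genes in both groups), 2 held an array far from the others, and chance flags about 1 in 20. Sdhaf2 read 196.3 in shRNA array 5 and 263.7 to 280.0 in the other shRNA arrays, a gap of 0.831 of the whole range. Gabpa read 587.9 in control array 4 and 548.4 to 555.1 in the other controls, a gap of 0.825 of the range.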

How the results depend on the processing

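With all genes, 543 passed lower and 196 higher. Without the replicate block, although the labels pair the samples, 95 passed higher and 0 members passed. The count of genes higher was 305 after quantile normalization. Among genes above a mean log2 level of 5 alone, 915 passed lower and 390 higher, with 2 members lower and 2 higher. After adding 16, 350 genes passed higher, with 1 member lower and 2 higher. With trend and robust eBayes, 1044 passed lower and 453 higher, with 4 members lower and 1 higher. With the 3 prime to 5 prime ratio as covariate, 2 passed lower and 0 higher, and the median log2 change was 0.06 for all members, 0.06 for assembly factors, 0.09 for complex III and 0.01 for complex IV. With the mean of all probe sets the complex IV median was 0.00. Leaving out 1 pair gave 199 to 656 genes lower and 44 to 273 higher, fewest without pair 4, and 0 members under each. Of 445 values of the 35 named genes under alternatives, 415 kept direction and side of the threshold, 20 no longer passed, 10 newly passed and 0 reversed. The causes were not tested, beyond fewer genes or samples entering a fit. Tfb1m no longer passed after quantile normalization (-0.40, adjusted p = 0.0821). Members near background, where signal is not far above the unspiked controls, carry little information on change.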
